A study of Mus musculus with 8 samples.

Results

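The Clec2 and Klrb1 lectin cluster of mouse chromosome 6 was followed through RNA-seq libraries of mESCs. It was taken as the 10 gene rows Clec2d, Clec2e, Clec2f, Clec2g, Clec2h, Clec2i, Klrb1a, Klrb1b, Klrb1c and Klrb1f, out of 24062 gene rows in the table. These genes were picked for how they changed from WT in each condition, so their differences from WT mESCs are described here without a test. Tests are given for comparisons between the treated conditions and for the interaction of both treatments. All libraries came from the #33-6 Setdb1 conditional KO mESC line. PolyA RNA was sequenced in 4 conditions with 2 biological replicates each. WT mESCs were this line without any treatment, and UNC0642-treated mESCs received 2 µM UNC0642 for 3 days. Setdb1 KO mESCs received 800 nM 4-OHT for 5 days. UNC0642-treated Setdb1 KO mESCs received 800 nM 4-OHT, given as 2 days in the labels and as 5 days in the methods of the study, and 2 µM UNC0642 for 3 days. SETDB1 is a histone H3K9 methyltransferase, UNC0642 inhibits the catalytic activity of the H3K9 methyltransferases G9a and GLP, and 4-OHT induces the deletion of the conditional allele. The groups without Setdb1 KO had no 4-OHT, so 4-OHT itself and the deletion cannot be told apart, and a single line stands for each genotype.

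The Clec2 genes encode C-type lectin-like membrane proteins, also called Clr proteins, and the Klrb1 genes encode the NKR-P1 receptors, which are best known on natural killer (NK) cells. Receptor and ligand genes lie mixed in the NK gene complex. Clec2d (Clr-b) is the ligand of the inhibitory receptor Klrb1b, Clec2i (Clr-g) is a ligand of the activating receptor Klrb1f, and Klrb1c is the NK1.1 antigen that marks NK cells in common mouse strains.

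On GRCm38 the members span chromosome 6 from 128609227 to 129186534. In order along the chromosome they are Klrb1a, Clec2h, Klrb1c, Klrb1b, Clec2i, Clec2g, Clec2f, Klrb1f, Clec2e and Clec2d. Klrb1a, Klrb1c, Klrb1b and Clec2e are on the minus strand and the others on the plus strand. Clec2i (128887588 to 128898167), Clec2g (128934381 to 128984707), Clec2f (129014112 to 129020527) and Klrb1f (129045901 to 129057464) follow each other on the plus strand with gaps of 36213, 29404 and 25373 bp. Clec2f is a transcribed unprocessed pseudogene in GENCODE M21, whereas RefSeq has it as protein coding with a longer span (129008803 to 129021342).

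The 250 bases before an annotated RefSeq start are shown for Clec2i and Clec2g, the members with most counts after Setdb1 KO, and for Clec2d and Klrb1f. Clec2d and Klrb1f are on the same strand and had at most 11 and 58 counts in a library. Klrb1f was still above both WT libraries in every treated condition. The sequences are from RefSeq on GRCm38.p6, plus strand, 5′ to 3′, and each ends at the base before the start used. For Klrb1f the RefSeq span of the gene begins at 129045837, which is inside the window shown. The end of that window, with its marked motif, thus lies within the annotated span. Capitals mark the letters of the motifs that are counted after the sequences, on either strand.
Clec2i (chr6:128887337-128887586): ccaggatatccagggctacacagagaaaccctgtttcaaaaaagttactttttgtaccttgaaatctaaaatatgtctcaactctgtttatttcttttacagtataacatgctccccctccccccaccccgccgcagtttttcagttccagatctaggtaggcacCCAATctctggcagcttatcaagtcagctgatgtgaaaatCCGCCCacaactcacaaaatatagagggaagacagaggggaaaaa
Clec2g (chr6:128934131-128934380): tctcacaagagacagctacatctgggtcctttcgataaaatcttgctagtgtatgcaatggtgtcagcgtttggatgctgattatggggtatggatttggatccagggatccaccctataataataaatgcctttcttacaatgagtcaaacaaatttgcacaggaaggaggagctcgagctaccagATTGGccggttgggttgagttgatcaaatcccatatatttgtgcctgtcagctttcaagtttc
Clec2d (chr6:129180365-129180614): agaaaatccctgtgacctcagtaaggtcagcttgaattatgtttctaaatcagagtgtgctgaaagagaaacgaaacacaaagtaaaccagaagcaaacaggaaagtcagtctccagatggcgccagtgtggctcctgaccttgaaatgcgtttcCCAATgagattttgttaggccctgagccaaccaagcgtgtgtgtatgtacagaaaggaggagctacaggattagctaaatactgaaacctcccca
Klrb1f (chr6:129045651-129045900): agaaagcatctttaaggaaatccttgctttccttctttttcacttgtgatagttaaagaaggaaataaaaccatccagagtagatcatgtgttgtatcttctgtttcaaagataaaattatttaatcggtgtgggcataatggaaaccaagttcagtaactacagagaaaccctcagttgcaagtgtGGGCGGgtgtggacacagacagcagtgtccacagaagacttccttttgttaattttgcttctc
RefSeq promoters were at hand for 9 of the 10 members, not for Clec2f. Within the 250 bases, searched on both strands, CCAAT was found in 3 of 9 members (Clec2i, Clec2g and Clec2d) and in 33.8% of 32817 mouse promoters of the same length. GGGCGG was found in 3 of 9 (Clec2i, Klrb1b and Klrb1f) and in 32.7% of all promoters. TATAAA was found in 1 of 9 (Clec2e) and in 12.4% of all promoters. In the Clec2i promoter CCAAT began at position -85 and the reverse complement of GGGCGG at -45 from the start. In Clec2g the reverse complement of CCAAT began at -63. The members had between 0 and 5 CpG dinucleotides in this window, and 49.7% of all promoters had 5 or fewer. The promoters that resembled each other most were not those of the genes with most counts. Clec2h and Clec2e, at 2 counts or fewer in every library, were identical at 81.8% of the aligned positions with a shared run of 121 bases. Clec2i and Clec2g were identical at 42.6%, near the median of 44.9% over the 36 pairs of members.

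The deposited values are read counts, with totals between 11702590 and 26807807 per library. The detection floor was set at 3 counts of a gene, which is 0.112 to 0.256 in counts per 1000000 counts (CPM) of these raw totals. CPM below are normalized by TMM, and intervals and floors cover counting error only. Setdb1 itself, counted over the whole gene and not over the deleted part alone, was at 169 and 127 CPM in the WT libraries, 130 and 86.4 in UNC0642-treated, 47.3 and 51.0 in Setdb1 KO, and 61.1 and 34.1 CPM in UNC0642-treated Setdb1 KO mESCs. Both KO conditions were thus below all 4 other libraries. A fit that blocks on the replicate number called Setdb1 lower in both KO conditions than in WT mESCs (edgeR adjusted p = 0.0164 and 0.00593). Without the block these were 0.181 and 0.0746. For UNC0642-treated Setdb1 KO over UNC0642-treated mESCs the edgeR adjusted p was 0.0437 with the block and 0.387 without it. The 10 pluripotency markers summed to between 4527 and 6696 CPM per library, and edgeR without the block called none of them in any comparison. The table held 15 NK and T cell markers, of which 9 had 3 counts or fewer in every library, among them Ncr1, Nkg7 and Ptprc, and Gzma, Xcl1 and Ccl5 were at 0 throughout.

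Of the 10 members, Clec2i, Clec2g, Clec2f, Klrb1a and Klrb1f had enough counts for the fit (5 of 10, through the conditions in which they were high), and Clec2h, Klrb1c, Klrb1b, Clec2e and Clec2d did not.

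Clec2i was the only member above the floor in both WT libraries. It had 10 and 27 counts in WT mESCs (0.871 and 0.974 CPM), and 193 and 170 counts in UNC0642-treated mESCs (9.07 and 6.12 CPM). In Setdb1 KO mESCs it had 1559 and 1223 counts (66.0 and 67.3 CPM) and in UNC0642-treated Setdb1 KO mESCs 743 and 2297 counts (77.1 and 84.5 CPM). All UNC0642-treated libraries lay above both WT libraries, and all KO libraries above both UNC0642-treated ones without KO. The ratio to WT mESCs of the pooled counts was 7.84 (95% counting interval 5.58 to 11.3) with UNC0642, 70.5 (51.0 to 100) with Setdb1 KO and 87.4 (63.3 to 124) with both. On the log2 scale the edgeR fold changes were 3.02 (SE 0.43), 6.16 (SE 0.49) and 6.43 (SE 0.49).

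Clec2g, whose product is a further Clr protein, was at the floor in WT mESCs, with 0 and 1 counts. UNC0642-treated mESCs had 7 and 9 counts (0.329 and 0.324 CPM). Setdb1 KO mESCs had 2106 and 940 counts (89.2 and 51.7 CPM), and UNC0642-treated Setdb1 KO mESCs 1237 and 1628 (128 and 59.9 CPM). Thus Clec2g was barely detected with UNC0642 alone and was in both KO conditions among the members with most counts. Against the single WT count, the ratio was 12.8 (counting interval 1.99 to 536) with UNC0642, 2860 (512 to 113000) with Setdb1 KO and 3050 (547 to 120000) with both. In both KO conditions replicate 1 was higher than replicate 2, whereas Clec2i was slightly higher in replicate 2.

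Clec2f had 3 counts in each WT library, and 2 and 3 counts with UNC0642. In Setdb1 KO mESCs it had 765 and 409 counts (32.4 and 22.5 CPM), and in UNC0642-treated Setdb1 KO mESCs 408 and 906 counts (42.4 and 33.3 CPM). With UNC0642 alone Clec2f was at the floor in both libraries, and the KO libraries did not overlap with any other. The ratio to WT mESCs was 0.666 (counting interval 0.161 to 2.62) with UNC0642, 184 (84.1 to 501) with Setdb1 KO and 233 (107 to 636) with both.

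Clec2d, the Clr-b ligand, stayed low throughout: 2 and 0 counts in WT, 7 and 9 in UNC0642-treated, 10 and 2 in Setdb1 KO, and 5 and 11 with both treatments. The highest of these was 0.519 CPM, and the Setdb1 KO libraries overlapped with WT. Against the 2 WT counts the ratios were 6.39 (1.5 to 57.3), 5.63 (1.25 to 51.8) and 8.51 (2.00 to 76.3). Clec2h (Clr-f) had 2 counts in 1 library of each KO condition and 0 counts in all others, and Clec2e (Clr-a) had 0 counts in all 8 libraries. A count of 0 allows up to 3 counts, that is 0.112 to 0.256 CPM before TMM normalization.

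Among the receptor genes, Klrb1a had the most counts in a KO condition. It had 0 and 1 counts in WT, 1 and 1 in UNC0642-treated, 31 and 5 in Setdb1 KO, and 58 and 43 with both treatments. In CPM the KO conditions were at 1.31 and 0.275, and at 6.02 and 1.58, so replicate 1 was the higher in both and the 2 KO conditions did not overlap. Against the single WT count, the ratio was 33.8 (counting interval 5.69 to 1370) with Setdb1 KO and 107 (18.9 to 4290) with both.

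Klrb1f, the receptor of Clec2i, had 0 and 2 counts in WT, 5 and 22 in UNC0642-treated, 18 and 5 in Setdb1 KO, and 11 and 58 with both treatments. The corresponding CPM were 0 and 0.0722, 0.235 and 0.791, 0.762 and 0.275, and 1.14 and 2.13. Each treatment alone was above WT and overlapped with the other, and the combination was above both. The ratio to the 2 WT counts was 10.8 (2.71 to 93.6) with UNC0642, 10.8 (2.67 to 94.4) with Setdb1 KO and 36.7 (9.79 to 309) with both.

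Klrb1b, the receptor of Clec2d, had 0 counts in WT, 0 and 2 in UNC0642-treated, 6 and 3 in Setdb1 KO, and 1 and 1 with both treatments. Setdb1 KO mESCs had it at 2.81 times a floor of 3 counts over both WT libraries, which leaves out the counting error of the KO counts. Klrb1c (NK1.1) had 0 counts in the 4 libraries without KO, 2 and 1 in Setdb1 KO, and 3 and 1 with both treatments. With both treatments Klrb1c was at 1.42 times the same floor. As the counting error of its 4 pooled counts is left out, no rise above WT was established. Neither gene exceeded 6 counts in any library.

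**Figure D1:**
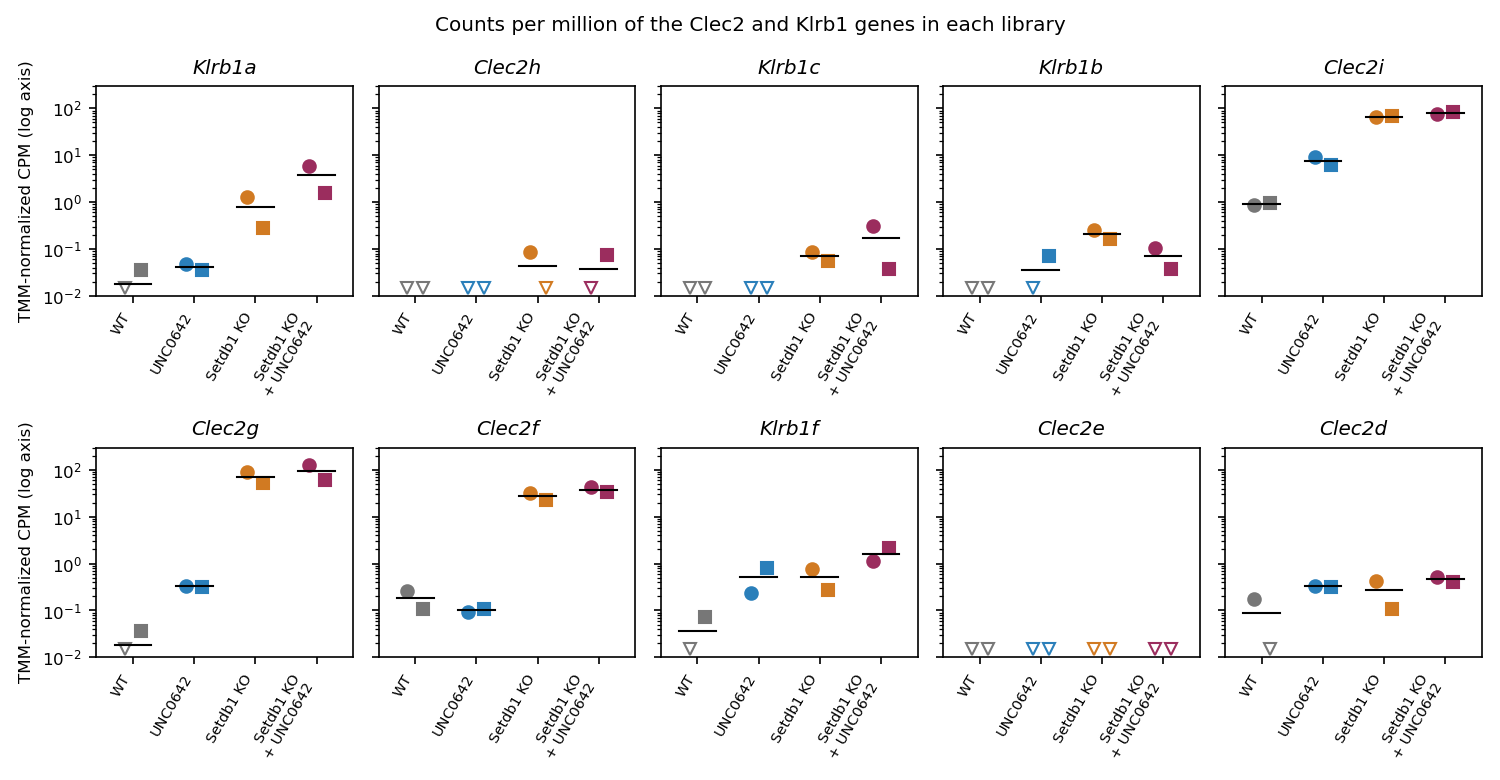
TMM-normalized CPM of each member (log axis) in the 8 libraries, in the order of the genes along the chromosome; circles are replicate 1, squares replicate 2, open triangles at the bottom libraries with 0 counts, and black lines the mean of 2 libraries. Clec2i, Clec2g and Clec2f reach between 22.5 and 128 CPM in the KO libraries, whereas the other 7 genes stay at 6.02 CPM or lower.

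Counted over all members, both libraries of a condition were above both WT libraries for 4 of 10 with UNC0642, 7 of 10 with Setdb1 KO and 8 of 10 with both, beside 11.1%, 13.1% and 16.4% of all 24062 gene rows. With an adjusted p under 0.05 in edgeR and more than 10 times the WT level as the threshold, 0 of the 5 members tested were called in UNC0642-treated mESCs (0.0% of all 16245 features tested). In Setdb1 KO mESCs 3 were called (Clec2f, Clec2g and Clec2i, beside 0.837% of all features), and in UNC0642-treated Setdb1 KO mESCs 4 (also Klrb1a, beside 2.87%). The members were chosen on these comparisons, so nothing is read from these counts. For UNC0642-treated mESCs, 3 members and 545 features had an unadjusted p under 0.05 in edgeR. DESeq2 and a fit that blocks on the replicate number called 0 members above 10-fold there, and 1 (Clec2i) at an adjusted p under 0.05 alone, beside 0.606% and 0.166% of the features with an adjusted p. In UNC0642-treated Setdb1 KO mESCs DESeq2 and the block called 5, Klrb1f being the fifth, beside 3.6% and 4.22%. The counts depended on the WT libraries. Without WT replicate 1 both comparisons with KO cells gave 0 called members and 0 called features, and without WT replicate 2 Setdb1 KO mESCs gave 0 and UNC0642-treated Setdb1 KO mESCs 3.

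The composition of the Clec2 counts differed between the conditions. The 6 Clec2 rows together had 15 and 31 counts in WT, 209 and 191 in UNC0642-treated, 4442 and 2574 in Setdb1 KO, and 2393 and 4844 with both treatments. Clec2i made up 66.7% and 87.1% of them in WT mESCs (exact Clopper-Pearson intervals 38.4% to 88.2% and 70.2% to 96.4%). With UNC0642 alone its share was 92.3% (87.9% to 95.6%) and 89.0% (83.7% to 93.1%). In Setdb1 KO mESCs it was 35.1% (33.7% to 36.5%) and 47.5% (45.6% to 49.5%), and with both treatments 31.0% (29.2% to 32.9%) and 47.4% (46.0% to 48.8%). The replicates of the KO conditions differed by more than their counting error, but all 4 KO libraries lay below all UNC0642-treated libraries without KO. The rest was made up by Clec2g with 33.6% to 51.7% and Clec2f with 15.9% to 18.7% of the counts in the KO libraries. Summed over the 4 Klrb1 rows, the libraries had 0 and 0.108 CPM in WT, 0.282 and 0.899 in UNC0642-treated, 2.41 and 0.771 in Setdb1 KO, and 7.58 and 3.79 CPM in UNC0642-treated Setdb1 KO mESCs. In every library the Klrb1 genes were below the Clec2 genes, whose sum was 1.12 CPM or more.

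**Figure D2:**
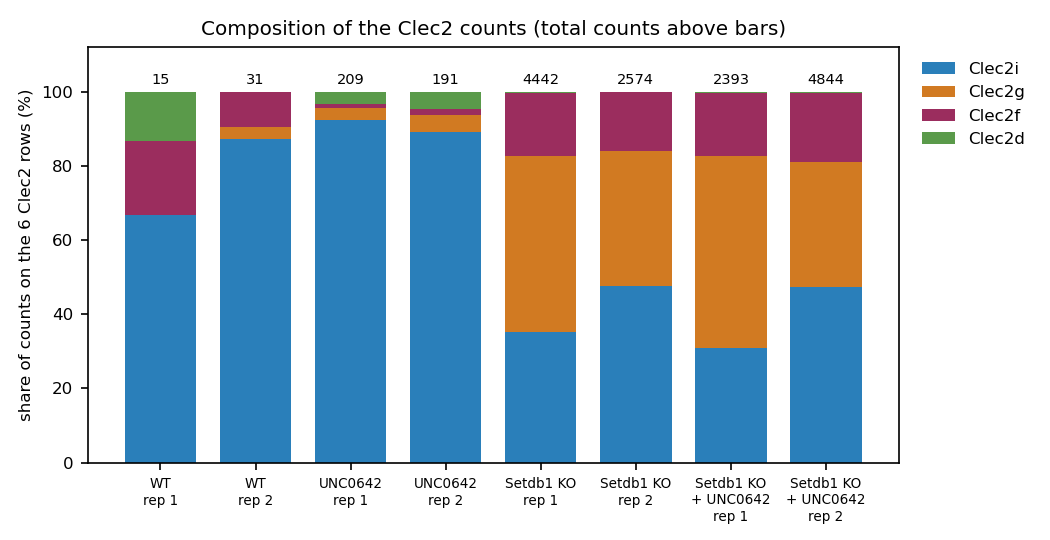
Share of the counts on the 6 Clec2 rows (percent, axis from 0) that belonged to Clec2i, Clec2g, Clec2f and Clec2d in each library, with the total number of Clec2 counts above each bar. Clec2i makes up between 89.0% and 92.3% in the UNC0642-treated libraries and between 31.0% and 47.5% in the KO libraries, where Clec2g and Clec2f fill the rest.

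To compare genes with each other, levels were divided by the length of their exons in GENCODE (CPM per kb). Clec2f was left out because its gene models differ in type and span. Klrb1f was kept, although its RefSeq span is also longer (129045837 to 129059724). In Setdb1 KO mESCs Clec2g was at 24.7 ± 9.30 CPM per kb (mean ± SD, n = 2 libraries) and Clec2i at 21.4 ± 0.295, which overlap. They were followed by Klrb1a at 0.498 ± 0.460, Klrb1f at 0.256 ± 0.170 and Clec2d at 0.220 ± 0.183, which did not differ beyond their spread. In UNC0642-treated Setdb1 KO mESCs the order was Clec2g (33.1 ± 17), Clec2i (26.0 ± 1.67), Klrb1a (2.38 ± 1.97), Klrb1f (0.809 ± 0.346) and Clec2d (0.381 ± 0.0668 CPM per kb). There Clec2g overlapped with Clec2i and Klrb1a with Klrb1f. Klrb1f lay above Clec2d in both libraries, but in replicate 1 by 11 against 5 counts, so their order is uncertain. With UNC0642 alone Clec2i led at 2.44 ± 0.672, above Clec2d at 0.269 ± 0.00308, Klrb1f at 0.254 ± 0.194 and Clec2g at 0.115 ± 0.00131 CPM per kb, and Klrb1f overlapped with Clec2d. Clec2g was thus below Clec2i in both UNC0642-treated libraries, and the 2 genes overlapped in Setdb1 KO mESCs.

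The treated conditions were also compared with each other. These comparisons did not choose the genes, but they share the treated libraries with those that did, so their p-values are not independent of the choice. Setdb1 KO mESCs were first compared with UNC0642-treated mESCs to ask how both single treatments differ. Clec2f, Clec2g and Clec2i were higher in Setdb1 KO mESCs. The log2 fold change was 8.0 for Clec2f (SE 0.68, edgeR adjusted p = 0.00376), 7.73 for Clec2g (SE 0.69, edgeR adjusted p = 0.00404) and 3.13 for Clec2i (SE 0.41, edgeR adjusted p = 0.018). As pooled ratios these were 276-fold (counting interval 118 to 851), 224-fold (137 to 392) and 9.0-fold (8.06 to 10.1). Klrb1a had a log2 fold change of 4.11 (SE 1.24, edgeR adjusted p = 0.329, or 0.0842 with the block), and Klrb1f of 0.01 (SE 0.96, edgeR adjusted p = 1.0). So 3 of 5 members tested were called, beside 0.542% of all features, and 2 of them were more than 10-fold higher, beside 0.406%. The members tested had passed the filter through the KO conditions and were picked for their rise there, so nothing is read from the count against these shares. Leaving out UNC0642-treated replicate 1 or 2 gave 0 called members and 1 called feature of all, and the adjusted p of Clec2i was also over the threshold without Setdb1 KO replicate 1 (0.063) or 2 (0.0707).

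UNC0642-treated Setdb1 KO mESCs were compared with UNC0642-treated mESCs to see what Setdb1 KO added under the inhibitor. The same 3 genes, Clec2f, Clec2g and Clec2i, were higher, by 8.46 (SE 0.69), 8.15 (SE 0.70) and 3.41 (SE 0.42) on the log2 scale, with edgeR adjusted p of 0.00353, 0.00353 and 0.00929. Klrb1a had a log2 fold change of 6.32 (SE 1.27). Its edgeR adjusted p was 0.0554, or 0.00646 with the block, and DESeq2 gave 0.000403, so its call depended on the model. Klrb1f had a log2 fold change of 1.67 (SE 0.95, edgeR adjusted p = 0.76). Called members were 3 of 5 beside 1.16% of all features, or 4 with the block beside 4.65% in that fit. The 3 were all more than 10-fold higher, beside 0.825% of all features. As above, nothing is read from these shares. Clec2i was no longer called without UNC0642-treated replicate 1 (0.0883) or 2 (0.124), which left Clec2f and Clec2g. This comparison shares the UNC0642-treated libraries with the preceding one.

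UNC0642-treated Setdb1 KO mESCs were then compared with Setdb1 KO mESCs, which asks what the inhibitor added to the KO. By the labels the 4-OHT treatment was also shorter in the former (2 against 5 days), and if so the inhibitor and the time on 4-OHT cannot be told apart in this comparison or in the interaction. Clec2i, Clec2g and Clec2f had small differences, with log2 fold changes of 0.28 (SE 0.38), 0.42 (SE 0.49) and 0.46 (SE 0.47). Klrb1a and Klrb1f had larger ones, 2.21 (SE 0.97) and 1.65 (SE 0.96). None of the 5 was called (edgeR adjusted p = 1.0 for each), and 0.0% of all features were. At an unadjusted p under 0.05 in edgeR were 1 member (Klrb1a, unadjusted p = 0.0475, or 0.00773 with the block) and 744 features. DESeq2 and the block called 0 members, beside 106 of 16781 and 21 of 16245 features with an adjusted p. Klrb1a was higher with UNC0642 in both replicates, by 2.20 and 2.52, and Klrb1f by 0.58 and 2.95. Clec2i was higher by 0.22 and 0.33, Clec2g by 0.53 and 0.21, and Clec2f by 0.39 and 0.57. All of these are log2 ratios of CPM between libraries of the same replicate number. As pooled ratios, Klrb1a was at 3.18 (counting interval 2.16 to 4.80) and Klrb1f at 3.40 (2.1 to 5.72), and these intervals leave out the spread between cultures.

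The interaction of both treatments compares the effect of UNC0642 with and without Setdb1 KO. For Clec2i it was -2.74 on the log2 scale (SE 0.57), the effect of UNC0642 being 3.02 in WT and 0.28 in Setdb1 KO mESCs. The unadjusted p of 0.000841, or 0.000129 with the block, did not pass the correction over all features (edgeR adjusted p = 1.0). The interaction was -3.01 for Clec2g (SE 1.14, edgeR adjusted p = 1.0) and 1.13 for Clec2f (SE 0.89, edgeR adjusted p = 1.0), resting on 1 and 6 WT counts. No member was called, as 0.0% of all features were. At an unadjusted p under 0.05 were 2 members and 122 features. DESeq2 and the block called 0 members, beside 1 of 21869 and 0 of 16245 features with an adjusted p. The interaction includes the comparison of UNC0642-treated with WT mESCs, on which the members were picked.

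**Figure D3:**
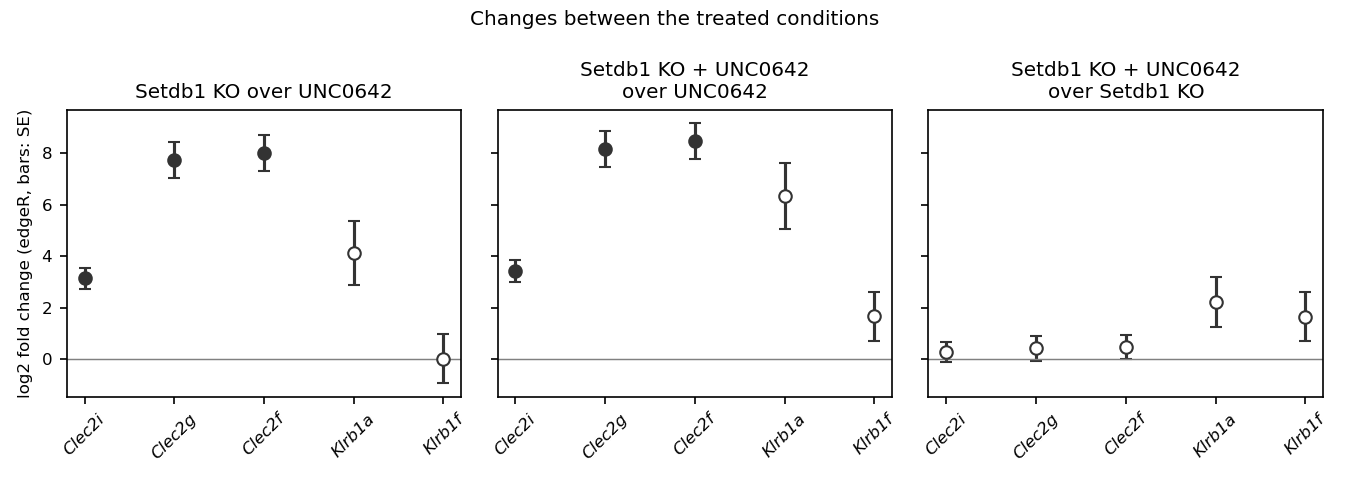
Log2 fold changes (edgeR, bars are the SE) of the 5 members tested between the treated conditions; filled points have an adjusted p under 0.05. Clec2i, Clec2g and Clec2f are filled in both comparisons with UNC0642-treated mESCs, at 3.13 to 8.46, and no point is filled for UNC0642-treated Setdb1 KO over Setdb1 KO mESCs, where the values are between 0.28 and 2.21.

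Between the outermost members lie 6 other gene rows, and 4 of them had enough counts for the fit. Gm15987, annotated as antisense within Clec2g, had 0 and 1 counts in WT, 4 and 2 in UNC0642-treated, 25 and 7 in Setdb1 KO, and 18 and 60 with both treatments. It was higher in the last than in WT mESCs (log2 fold change 6.08, SE 1.20, edgeR adjusted p = 0.0252), a call that was lost without either WT replicate or either replicate of UNC0642-treated Setdb1 KO mESCs. The strand setting of the counting is not given in the sources used here, so reads of Gm15987 and of Clec2g introns cannot be told apart. BC064078, a transcribed pseudogene between Clec2g and Clec2f, had 2 and 22 counts in WT, 26 and 69 in UNC0642-treated, 73 and 44 in Setdb1 KO, and 30 and 188 with both treatments (log2 fold change of the last over WT 3.27, SE 0.84, edgeR adjusted p = 0.0667). Klrb1 is a gene of the receptor family itself. It had 0 counts in the libraries without KO, 3 and 0 in Setdb1 KO mESCs, and 11 and 16 with both treatments. The combination was at 9.58 times a floor of 3 counts over both WT libraries, without the counting error of its own counts. BC035044, which overlaps Clec2i, had between 2 and 9 counts without KO and between 8 and 25 with KO.

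Of the 46 other gene rows within 1 Mb on either side, 16 were tested and 0 were called by edgeR without the block in any comparison, and their median log2 fold changes from WT were -0.01 with UNC0642, -0.28 with Setdb1 KO and -0.34 with both. The medians over all 15313 genes tested were -0.04, -0.06 and -0.06. For the 4 tested rows between the members, the medians in the same order were 1.4, 3.2 and 4.7. Of these 4 rows 0, 3 and 4 had an unadjusted p under 0.05 in edgeR, and Gm15987 and BC035044 among them overlap members. For all neighbouring rows a call is an adjusted p under 0.05 alone. Blocking on the replicate number, 5 of the 20 tested rows inside and outside were called in UNC0642-treated Setdb1 KO over WT mESCs, beside 17.2% of all features in that fit, and without the block 1 of 20 (Gm15987) beside 4.11%. With the block BC064078, Gm15987 and Klrb1 from inside the span were higher, 2 of them more than 10-fold. Tspan9 and Tulp3 from outside were lower, by log2 fold changes of -1.17 (SE 0.25, edgeR adjusted p = 0.0179) and -0.89 (SE 0.22, edgeR adjusted p = 0.0291).

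**Figure D4:**
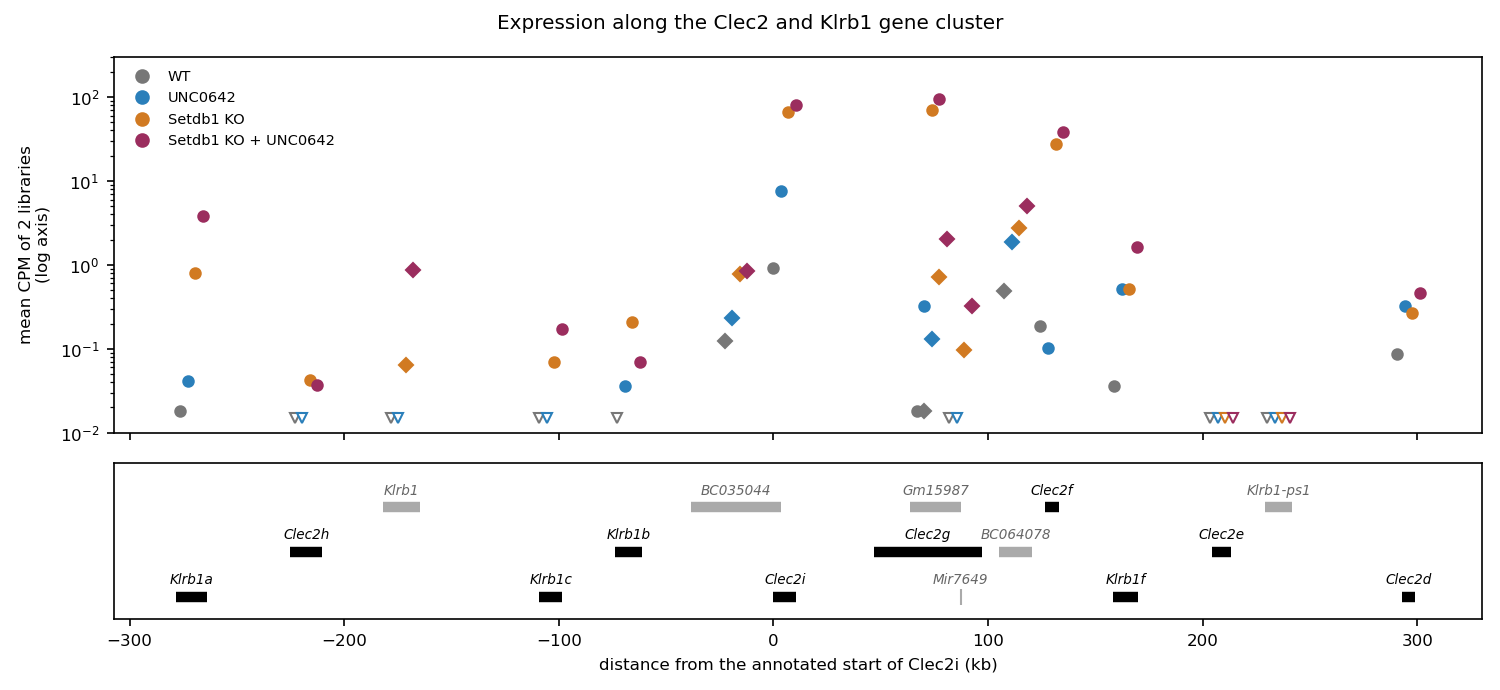
Mean CPM of 2 libraries per condition (log axis, above) against the position of each gene row as distance from the annotated start of Clec2i in kb (below); circles are members, diamonds other rows of the span, open triangles means of 0, and the 4 colours are set side by side for legibility. The KO conditions stand highest at Clec2i, Clec2g and Clec2f, which lie next to each other among the members. Of the outermost members, Klrb1a reaches a mean of 3.80 CPM and Clec2d of 0.462 CPM with both treatments, and Clec2h, Klrb1c and Clec2e in between stay at 0.174 CPM or lower.

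The neighbouring genes are paralogs, so shared reads were examined. Only identical stretches in GENCODE M21 transcripts were searched, and stretches with mismatches were not. For Clec2f this covers the GENCODE model with 657 bases of exon and not the RefSeq one. No stretch of 150 bases in the GENCODE transcripts of Clec2i, Clec2g, Clec2f, Klrb1a or Klrb1f occurs in a transcript of another gene. Of stretches of 50 bases, 4.10% of Clec2i, 3.44% of Clec2g, 9.92% of Klrb1a, and 0% of Clec2f and Klrb1f do. Klrb1b and Klrb1c share 19.4% and 8.73% of stretches of 150 bases with the gene model Gm44511, and none with another gene. Gm44511 is not among the other gene rows within 1 Mb. Whether this sharing changed the few counts of Klrb1b and Klrb1c was not tested, so they stay uncertain.

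The other lectin genes of the NK gene complex, and the genes through which NKR-P1 receptors signal, were looked at as lists. The table held 29 further lectin genes, of which 15 had 0 counts in all libraries and 26 had 3 counts or fewer in each, and Klrb1 was the only one tested. Their sum was 0.108 to 0.261 CPM in WT and 1.32 to 2.49 CPM in UNC0642-treated Setdb1 KO mESCs. Of 14 signalling genes 10 were tested, and edgeR without the block called 0 of them in any comparison. Their median log2 fold change over WT was -0.14 in Setdb1 KO and -0.36 in UNC0642-treated Setdb1 KO mESCs (all genes -0.06 and -0.06). At an unadjusted p under 0.05 in edgeR were 0 and 2 of them.

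Markers of other cell types were summed per library, and calls for them are from edgeR without the block. The NK and T cell markers were at 19.9 to 20.9 CPM in WT, 15.4 to 19.8 in UNC0642-treated, 14.8 to 43.1 in Setdb1 KO, and 8.49 to 15.4 CPM in UNC0642-treated Setdb1 KO mESCs, and 3 of them were tested. Eomes, a transcription factor that is not limited to NK cells, made up most of these sums in WT (17.7 and 18.2 CPM) and 41.5 CPM of the highest one. Cd3e, a chain of the T cell receptor complex, was lower in Setdb1 KO than in UNC0642-treated mESCs (log2 fold change -3.56, SE 0.62, edgeR adjusted p = 0.0462). It had 11 and 33 counts in WT, 132 and 183 in UNC0642-treated, 10 and 12 in Setdb1 KO, and 45 and 115 with both treatments, the opposite order of both single treatments to that of Clec2g. Myeloid markers (4 tested) summed to 3.92 to 4.29 CPM in WT, 6.63 to 6.91 in UNC0642-treated, 6.94 to 7.87 in Setdb1 KO and 6.44 to 9.19 CPM in UNC0642-treated Setdb1 KO mESCs, and 0 were called. Intestinal epithelium markers (5 tested) were at 6.71 to 8.45, 7.88 to 8.04, 6.86 to 7.76 and 3.79 to 6.12 CPM in the same order, with 0 called. Fibroblast markers (7 tested, 0 called) summed to 14.5 to 29.0 CPM in WT, 24.8 to 36.3 in UNC0642-treated, 7.83 to 26.4 in Setdb1 KO and 16.6 to 21 CPM with both treatments. The 3 collagen genes among them were lower in replicate 1 of every condition, for example Col3a1 with 0 to 2 counts against 45 to 49 in replicate 2, whereas Pdgfra, Pdgfrb, Thy1 and Lum had no such order. The part of these markers in the lectin values was not tested. In bulk libraries, more cells with a transcript and more of it per cell cannot be told apart.

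The genes whose log2 CPM over the 8 libraries was most like the mean of Clec2f, Clec2g and Clec2i were Mmp1b (Pearson r = 0.997), Dpy19l2 (0.994), Rsph4a (0.994), Sycp2 (0.993) and Cnga3 (0.992). They encode a matrix metallopeptidase, a membrane protein of the sperm head, a radial spoke protein of cilia, a protein of the synaptonemal complex and a channel subunit of cone photoreceptors. The 8 points fall into a KO and a non-KO group, and each r is a description. With a smaller prior count the first stayed first and Dpy19l2 fell to rank 16.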

How the data were processed

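PolyA RNA-seq of mESCs in 4 conditions with 2 biological replicates each was analysed. Conditions and replicate numbers are those of the labels. The authors trimmed the reads with Trim Galore 0.3.7, mapped them with TopHat to GRCm38/mm10 and deposited TEtranscripts counts, which are not normalized and cover genes and subfamilies of transposable elements. Such counting can share a read among similar genes. The strand setting is not given in the sources used here.

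The filter of edgeR 4.0.16 (filterByExpr, R 4.3.3; count 10, total 15) kept 16245 features, 15313 of them genes and 932 subfamilies. All 8 libraries entered 1 quasi-likelihood fit with a coefficient for each condition and TMM factors of 0.810 to 1.20. Benjamini-Hochberg adjustment of p ran over all features of a comparison. A feature was called where its adjusted p was under 0.05, and for members against WT its level also had to differ by more than 10 times. Neighbouring rows and list genes were called by adjusted p alone. The prior count was 0.125 for fold changes and 2 for likeness. The SE was computed from the fold change and the F statistic. Ratios pool the counts of a condition over its TMM library sizes, with an exact 95% interval, and a condition at 0 was set to 3 counts. The p-values measure the spread between these libraries.

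The labels give replicates 1 and 2 in every condition. Their deviations correlated at 0.285 to 0.663 (median 0.587, 6 pairs of conditions, across 15313 genes, which are not independent), so the replicate number was taken as pairing the libraries. The fit with it as a block is given where it changes a call of a member, a neighbouring row or Setdb1. All other values are from the fit without the block, so their SE and p leave this pairing out. List genes were examined only there. The block called more features, 698 against 182 in Setdb1 KO over WT mESCs. In UNC0642-treated Setdb1 KO over WT mESCs it called 2790 against 667.

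Alternatives were DESeq2 1.42.0 on all 8 libraries or only the 4 compared, the block, normalization by RLE or by total counts, no expression filter, genes only, a prior count of 2, each replicate against WT of the same number, and leaving out each library. Scaling by total counts moved the median log2 change by -0.17 relative to TMM for the combined condition against WT. The edgeR step was tested on simulated data. Positions are from GENCODE M21 (22750 gene rows) or RefSeq (1191), and 121 rows had none. The members and lists were chosen with earlier results of these data known. Named are all members, Setdb1, rows within 1 Mb and list genes that were called, and the 5 genes most like the tested Clec2 members. Other rows between the members, single markers and members of the block's calls were named after their values were seen.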

Additional observations from a re-analysis of the deposited data

Results flagged for a closer look

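The UNC0642 effect on Clec2f is listed here because the sign of the CPM difference was opposite with and without Setdb1 KO in both replicates. Without KO no direction was measured, since Clec2f had 2 and 3 counts with UNC0642 against 3 and 3 in WT mESCs, all at the detection floor, with a pooled ratio of 0.666 (counting interval 0.161 to 2.62). With KO it was at 42.4 against 32.4 and at 33.3 against 22.5 CPM. The interaction of 1.13 on the log2 scale did not pass the threshold (SE 0.89, edgeR adjusted p = 1.0).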

How the results depend on the processing

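Of 261 log2 fold changes of the tested members under the alternatives other than leaving out a library, 259 kept their sign. Leaving out 1 library in turn, the called members were 0 to 3 in Setdb1 KO over WT, 0 to 4 in UNC0642-treated Setdb1 KO over WT, 0 to 3 in Setdb1 KO over UNC0642-treated, and 2 to 4 in UNC0642-treated Setdb1 KO over UNC0642-treated mESCs. A condition then has 1 library that is assumed to vary like the others, and fewer libraries were fitted. Of the neighbouring rows in UNC0642-treated Setdb1 KO over WT mESCs, DESeq2 on all 8 libraries called 2, the replicate block 5, no expression filter 2 and DESeq2 on only the 4 libraries 3, and leaving out 1 library 0 to 1, against 1 as reported. In the order of these 4 alternatives, 21, 20, 31 and 21 neighbouring rows had an adjusted p. The same fits called 1482 of 17629, 2790 of 16245, 849 of 20497 and 1264 of 17198 features. As reported, 667 of 16245 features were called. The neighbouring rows were called by adjusted p alone, and the members against WT also by fold. For UNC0642-treated Setdb1 KO over UNC0642-treated mESCs, DESeq2 on all 8 libraries and the replicate block each called 1 neighbouring row, against 0. Beside it they called 569 of 18053 and 755 of 16245 features, against 189 of 16245. Signs reversed for values that were not called. Klrb1f in Setdb1 KO over UNC0642-treated mESCs was at -0.24 with total counts normalization and between -0.91 and 1.13 leaving out 1 library. The interaction of Klrb1a was between -0.69 and 3.11, and Clec2g in UNC0642-treated Setdb1 KO over Setdb1 KO mESCs between -0.24 and 0.90. The cause was not tested. Among the members, the replicate block changed no call beyond those of Clec2i, Klrb1a and Klrb1f given above. With 2 libraries per condition and WT counts of 0 to 3 for all members but Clec2i, the size of a change from WT is known only within wide counting intervals.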
